A study of Homo sapiens with 6 samples.

Results

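This report describes 37 human genes of homologous recombination, the Fanconi pathway and the DNA damage checkpoint. The genes were taken from a named list, and each has array probe sets that carry only its own symbol. All 37 were among the 18701 genes with such probe sets and among the 14026 that passed a filter on dim signal. The rule names the genes rather than selecting them by value, but the list was drawn up with earlier results of these data known.

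The cells were HT29-tsp53, a human colorectal adenocarcinoma line (HT-29) that carries a temperature-sensitive murine p53 transgene (V135A). The transgene product works at 32 °C and loses activity when the cells are warmer. Every group carried it, so p53 off means an inactive transgene product rather than a missing one. Temperature was the switch, so p53 activity and temperature cannot be told apart. The p53 off group was kept at the restrictive temperature, which the labels give as 38 °C and the design text as 37 °C. The p53 on group spent 16 h at 32 °C, and the p53 on then off group spent 16 h at 32 °C followed by a 6 h return to the restrictive temperature, although 1 label field gives 32 °C for those 6 h. Each group had 2 arrays, 1 from each of 2 numbered experiments, and total RNA was read on Affymetrix Gene 1.0 ST arrays. Nothing in the labels says whether the 2 experiments used separate thaws or clones of the line, so p-values measure only the spread between these samples, which may be technical.

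Homologous recombination repairs a broken chromosome by copying its sister. Broken ends are trimmed by the MRN complex, RBBP8 (CtIP) and EXO1, and BRCA2, which PALB2 ties to BRCA1 and BARD1, then prepares the single strand for strand exchange. The Fanconi core complex attaches ubiquitin to FANCD2 and FANCI at DNA crosslinks, and the kinases ATM and ATR signal damage through CHEK2 and CHEK1. Many of these genes are transcribed mainly around S phase, and active p53 is known to lower many cell cycle genes through the CDK inhibitor p21.

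The labels held on all arrays for known p53 targets. CDKN1A, which encodes p21, had log2 signals of 8.32 and 7.91 in p53 on, against 4.83 and 4.99 in p53 off, and 4.92 and 4.78 in p53 on then off. MDM2, the ligase that degrades p53, had 10.97 and 10.89 in p53 on, against 7.51 and 7.31 in p53 off, and GDF15, a stress cytokine, had 9.68 and 9.97 in p53 on, against 6.82 and 6.76 in p53 off. All 11 measured intestinal epithelial markers passed the filter, with array means of 8.36 to 9.03. Of the markers of other cells, 5 of 7 fibroblast genes (not DCN and LUM) and 4 of 6 leukocyte genes (not PTPRC and CD3E) passed. Over all 7 and all 6 of these genes, passed or not, array means were 3.73 to 3.92 and 5.34 to 5.66. In bulk RNA, fewer cells that express a gene and less RNA per cell cannot be told apart.

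The promoter letters of 4 members are shown because they span the patterns described below. BLM and BRCA2 were called in both the p53 on and the recovery comparison, FANCC has 2 E2F matches, and PALB2 differed little between groups. The RefSeq table (GRCh38.p14) held a promoter for 33 of the 37 members, and FANCI, WRN, NBN and RAD54B were not matched. Each line gives the 250 bases before the transcript start, 5′ to 3′ on the gene's strand. Capitals mark matches on either strand to the E2F motif (TTTNNCGC, each N being C or G), the cell cycle homology region (TTTGAA) or the CCAAT box (CCAAT). The stretches are chr15:90717096-90717345 (+) for BLM, chr13:32315258-32315507 (+) for BRCA2, chr9:95317710-95317959 (-) for FANCC and chr16:23641311-23641560 (-) for PALB2.
BLM: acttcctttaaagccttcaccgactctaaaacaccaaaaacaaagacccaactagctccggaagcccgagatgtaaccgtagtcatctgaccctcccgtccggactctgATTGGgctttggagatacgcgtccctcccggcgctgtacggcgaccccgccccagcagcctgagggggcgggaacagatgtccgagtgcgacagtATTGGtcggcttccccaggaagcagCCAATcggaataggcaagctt
BRCA2: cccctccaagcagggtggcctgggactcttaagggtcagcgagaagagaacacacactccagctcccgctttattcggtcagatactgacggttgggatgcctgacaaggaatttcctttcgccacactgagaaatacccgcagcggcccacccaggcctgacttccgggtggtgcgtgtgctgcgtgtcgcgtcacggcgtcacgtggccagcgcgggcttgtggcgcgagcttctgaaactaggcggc
FANCC: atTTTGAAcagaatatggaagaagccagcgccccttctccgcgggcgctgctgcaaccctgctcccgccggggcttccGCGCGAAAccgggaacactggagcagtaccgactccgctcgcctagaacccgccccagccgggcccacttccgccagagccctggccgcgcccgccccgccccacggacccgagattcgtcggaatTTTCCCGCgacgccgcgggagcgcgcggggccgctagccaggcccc
PALB2: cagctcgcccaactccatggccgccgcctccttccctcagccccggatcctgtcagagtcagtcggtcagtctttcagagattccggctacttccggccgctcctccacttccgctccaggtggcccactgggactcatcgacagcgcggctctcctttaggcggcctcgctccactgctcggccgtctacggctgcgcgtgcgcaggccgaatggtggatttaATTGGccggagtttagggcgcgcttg

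The BLM stretch holds 3 CCAAT boxes, and the PALB2 stretch holds 1. FANCC holds E2F matches at -172 and -46 from the start. No motif searched is in the BRCA2 stretch. Over the full windows of 300 bases, which reach 50 bases past the start, an E2F match was found for 7 of 33 members (21.2%), against 6.23% of 11087 tested genes and 3.99% of all 27305 genes of the promoter table. The 7 were XRCC2, FANCA, FANCC, FANCD2, RMI1, EXO1 and TOPBP1. A gene counts once if any of its windows matches. A CCAAT box was found for 18 members (54.5%, against 41.9% of tested genes and 39.7% of all genes of the table). TTTGAA was found for 5 (15.2%, against 13.3% of tested genes and 18.2% of all genes of the table). Per single window, of 35116, the shares were 3.31% for E2F, 34.6% for CCAAT and 15.2% for TTTGAA. Of the 33 members, 17 were called lower in p53 on with the experiment number as a block (described below). A CCAAT box was found for 8 of these 17 (47.1%), an E2F match for 5 (29.4%) and TTTGAA for 3 (17.6%). Among the other 16 members the counts were 10 (62.5%), 2 (12.5%) and 2 (12.5%). The p53 site, with a spacer of at most 13 bases, was found for 0 members, against 0.0271% of tested genes and 0.0366% of all genes of the table. With matches this rare over all genes, 0 of 33 was the likely outcome, so the search cannot show that these promoters lack p53 sites. These are matches of letters in a short window, and they carry no test.

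The first comparison asks how these genes differed after 16 h with active p53 at 32 °C. Most lay lower in p53 on than in p53 off. BLM, BRCA1, BRCA2 and RAD54L fell by 1.37 to 1.52 log2 units, or 2.59- to 2.87-fold, in limma with Benjamini-Hochberg adjustment over all genes. FANCB was the fifth call, but it passed the filter on dim signal through the other groups alone, and it is counted apart where it matters. When the numbered experiment entered the fit as a replicate block, 19 members fell (18 without FANCB) and 0 rose. The median difference over the 37 was -0.74, against 0.02 over all genes tested, and it was -0.60 in experiment 1 and -0.74 in experiment 2.

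Of all 14026 genes, 0.585% were called lower and 0.898% higher without the block, against 5 and 0 of the 37 members (4 lower without FANCB). With the block the shares over all genes were 6.28% lower and 5.18% higher. Both arrays of p53 on lay below both arrays of p53 off for 27 members, against 20.6% of all genes, and 0 members lay above, against 22.6%. In both experiments 31 members were lower, against 31.6% of all genes, and PALB2 and RAD51C were higher, against 33.5%. No member stayed called without any 1 of the 6 arrays, which leaves 1 group with 1 array. With all arrays, 20 members had an unadjusted p under 0.05 in limma, against 15.4% of all genes. In a fit of only these groups none of the 5 was called (adjusted p = 0.0684 to 0.091), and with no filter on dim genes BRCA1 (0.057), RAD54L (0.0545) and FANCB (0.0634) were not. With the mean of probe sets in place of their median, 13 members were called lower without the block, namely these 5 with BARD1, RAD54B, FANCC, RMI1, EXO1, CHEK1, TOPBP1 and MDC1. With medians, a call without the block therefore rests on having all 6 arrays, and the calls with it rest on taking the 2 experiments as pairs.

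**Figure D1:**
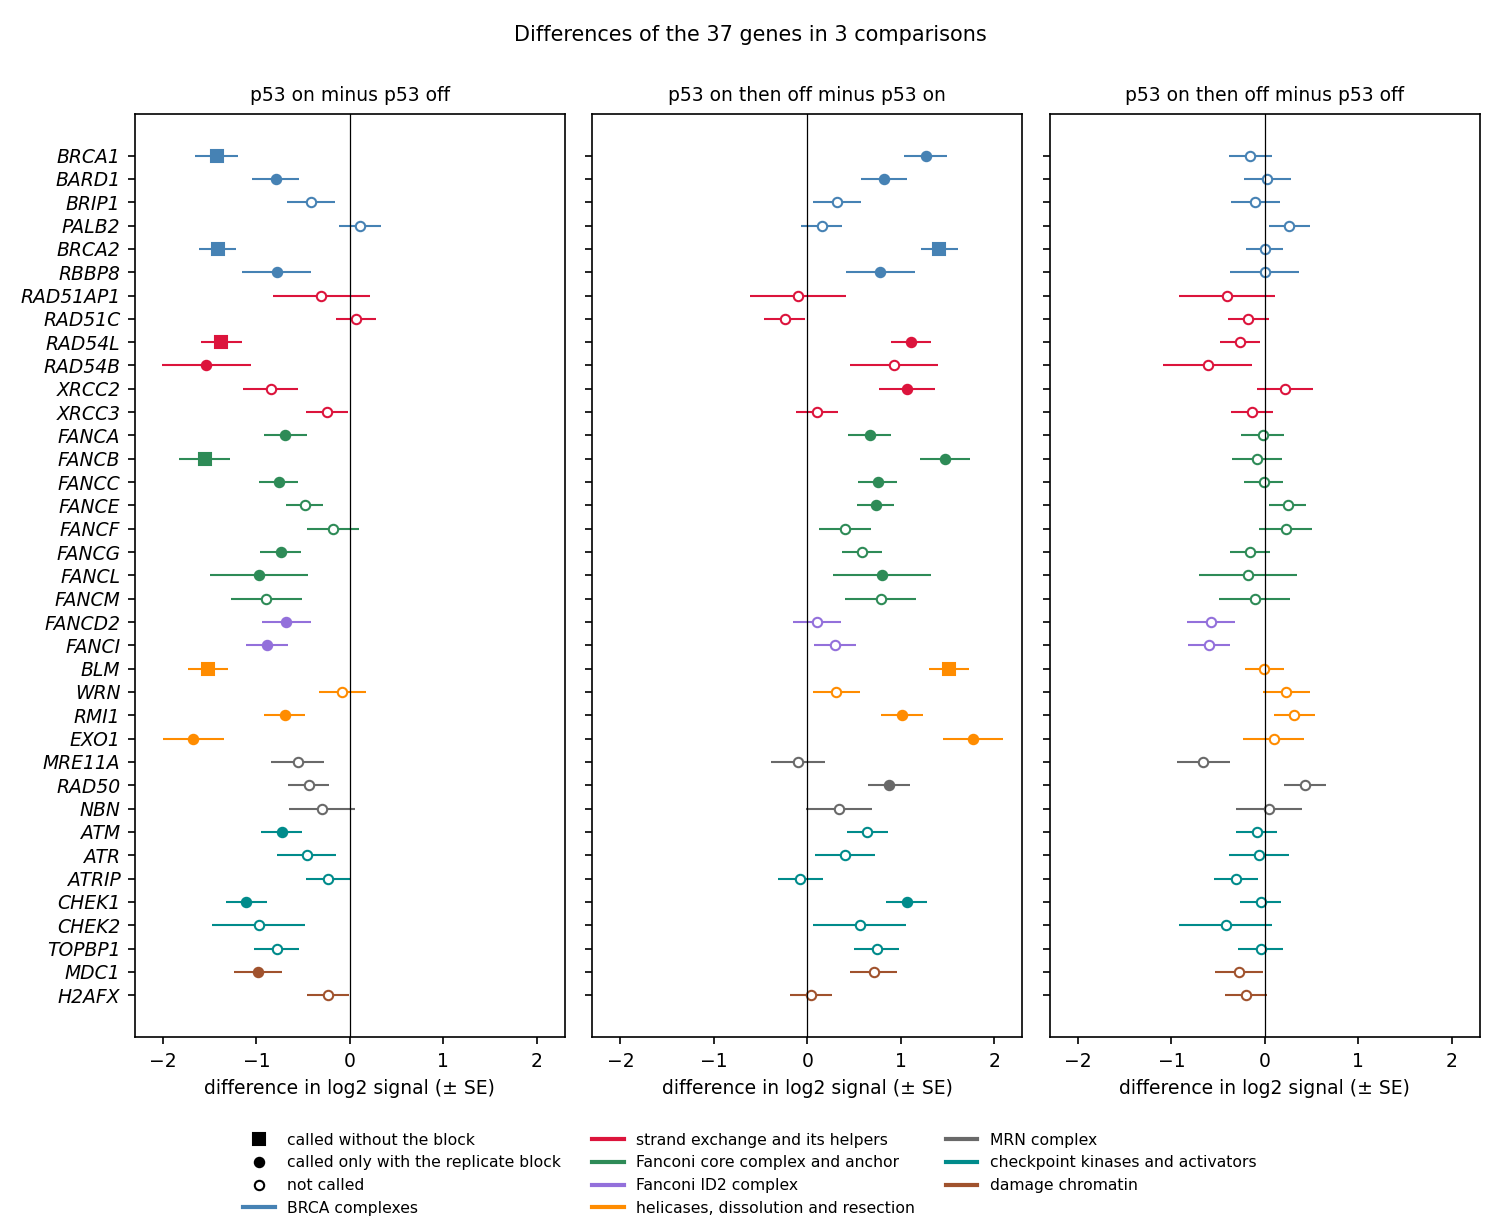
Differences in log2 signal of the 37 genes, in rows coloured by role, for p53 on minus p53 off, p53 on then off minus p53 on, and p53 on then off minus p53 off. Points are limma estimates with standard errors of the fit without the replicate block, from n = 2 arrays per group. Squares are genes called without the block, filled circles genes called only with it, and open circles genes not called. In the left panel 35 genes lie below 0, in the middle panel 33 lie above 0, and in the right panel no gene is called.

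The BRCA1 group held 2 of the 5 calls. BRCA1, a ubiquitin ligase subunit that promotes end trimming and PALB2 loading, had log2 signals of 6.08 and 5.81 in p53 on, against 7.24 and 7.51 in p53 off (difference -1.43 ± 0.23 SE, adjusted p = 0.0438, or 0.00435 with the block). BRCA2, which acts at the step before strand exchange, had 6.08 and 5.92 in p53 on, against 7.31 and 7.51 in p53 off (-1.41 ± 0.20, adjusted p = 0.0293, block 0.00262). For both genes the groups were more than 1 log2 unit apart in each experiment. Every SE here and below is from the fit without the block, also where a block adjusted p stands beside it.

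BARD1, the partner of BRCA1, had 4.79 and 5.03 in p53 on, against 5.58 and 5.82 in p53 off (-0.79 ± 0.25, adjusted p = 0.193, block 0.0238). RBBP8, which starts end trimming with MRN, had 6.57 and 5.60 in p53 on, against 7.06 and 6.67 in p53 off (-0.78 ± 0.37, adjusted p = 0.381, block 0.0359). In the median-based values both fell only with the block, and BARD1 was also called without it from the mean of probe sets. The RBBP8 groups nearly met, with experiment 1 above experiment 2 in each group. The helicase gene BRIP1 differed by -0.41 ± 0.26 (block adjusted p = 0.242). PALB2, the bridge between BRCA1 and BRCA2, had 7.03 and 6.80 in p53 on, against 6.97 and 6.64 in p53 off (0.11 ± 0.22, block adjusted p = 0.733), and its groups overlapped.

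Among the strand exchange genes, the 2 Swi2/Snf2 translocases had the largest differences. RAD54L, which drives strand exchange, had 4.86 and 5.19 in p53 on, against 6.34 and 6.46 in p53 off (-1.37 ± 0.22, adjusted p = 0.0423, block 0.00403). Its paralog RAD54B had 4.14 and 3.73 in p53 on, against 5.60 and 5.35 in p53 off (-1.54 ± 0.47, adjusted p = 0.184, block 0.0139). RAD54L was called without the block and RAD54B with it, or without it from the mean of probe sets (adjusted p = 0.0479), and both were over 1.2 log2 units lower in each experiment.

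The other genes of this role were not called. XRCC2 differed by -0.85 ± 0.30 (block adjusted p = 0.0556), with -0.39 in experiment 1 and -1.31 in experiment 2. XRCC3 differed by -0.24 ± 0.23 and RAD51C by 0.07 ± 0.22. RAD51C had 7.31 and 7.07 in p53 on, against 7.26 and 6.98 in p53 off, which overlap. RAD51AP1, which stimulates strand pairing, differed by -0.30 ± 0.52 (SE of 0.18 with the block, block adjusted p = 0.338).

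All 8 members of the Fanconi core complex and its DNA anchor were lower in both experiments, with a median of -0.75. FANCB, a core subunit encoded on the X chromosome, had 3.46 and 3.18 in p53 on, against 4.61 and 5.14 in p53 off (-1.56 ± 0.27 as measured, adjusted p = 0.0494, block 0.00459). Its p53 on values lay under the filter value of log2 3.62, and with them raised to that value it was at least 2.39-fold lower. Since it passed the filter only through the groups where it is high, its p-value carries little weight. It was also not called with quantile normalization or with a trended prior.

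FANCL, the ubiquitin ligase subunit, had 6.45 and 5.61 in p53 on, against 7.54 and 6.46 in p53 off (-0.97 ± 0.52, adjusted p = 0.457, block 0.0122). Its groups nearly met, and experiment 1 stood 0.84 to 1.23 log2 units above experiment 2 in all 3 groups. FANCC had 5.97 and 5.72 in p53 on, against 6.73 and 6.48 in p53 off (-0.76 ± 0.21, adjusted p = 0.144, block 0.0256). The core subunits FANCA and FANCG also fell with the block. FANCA had 5.99 and 6.24 in p53 on, against 6.61 and 7.00 in p53 off (-0.69 ± 0.23, block adjusted p = 0.0336). FANCG had 5.17 and 5.24 in p53 on, against 5.91 and 5.98 in p53 off (-0.74 ± 0.21, block 0.0392). FANCE, FANCF and the translocase gene FANCM differed by -0.49 ± 0.20, -0.18 ± 0.28 and -0.89 ± 0.38 and were not called.

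The pair that the core complex modifies was lower in p53 on as well. FANCI had 7.94 and 8.18 in p53 on, against 8.98 and 8.92 in p53 off (-0.89 ± 0.22, adjusted p = 0.121, block 0.024). FANCD2 had 6.23 and 6.61 in p53 on, against 6.82 and 7.37 in p53 off (-0.68 ± 0.26, adjusted p = 0.271, block 0.0474). Neither gene's groups overlapped, and both fell with the block only. Without it neither was called from the mean of probe sets.

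BLM and EXO1 had large differences among the helicases and nucleases. BLM, the helicase that dissolves joined molecules with TOP3A and RMI1, had 5.77 and 5.51 in p53 on, against 7.09 and 7.22 in p53 off (-1.52 ± 0.21, adjusted p = 0.0293, block 0.00216). EXO1, a nuclease of long-range trimming, had 5.75 and 6.33 in p53 on, against 7.35 and 8.09 in p53 off. Its difference of -1.68 ± 0.32 was the furthest below 0 of the 37, and it passed with the block (adjusted p = 0.00146) but not without it (0.0665).

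RMI1 had 5.49 and 5.44 in p53 on, against 6.27 and 6.06 in p53 off (-0.70 ± 0.22, adjusted p = 0.199, block 0.0386). WRN, the other RecQ helicase on the list, had 4.86 and 4.32 in p53 on, against 4.57 and 4.76 in p53 off (-0.08 ± 0.25, block adjusted p = 0.848). WRN was higher in experiment 1 and lower in experiment 2. The difference between BLM and WRN was not tested.

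The MRN complex, which binds broken ends and activates ATM, had no call. RAD50 differed by -0.44 ± 0.22, NBN by -0.30 ± 0.35 and MRE11A (now MRE11) by -0.56 ± 0.29, with block adjusted p of 0.165, 0.32 and 0.174. All 3 were lower in both experiments.

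Of the checkpoint genes, CHEK1, the kinase that ATR activates to halt the cycle, had 7.79 and 7.63 in p53 on, against 8.74 and 8.89 in p53 off (-1.11 ± 0.22, adjusted p = 0.0701, block 0.00891). ATM, the kinase of double-strand breaks, had 5.92 and 5.64 in p53 on, against 6.41 and 6.61 in p53 off (-0.73 ± 0.22, adjusted p = 0.176, block 0.0427). MDC1, which binds phosphorylated H2AX, had 5.74 and 5.64 in p53 on, against 7.00 and 6.35 in p53 off (-0.98 ± 0.26, adjusted p = 0.129, block 0.0213). All 3 fell with the block, and none of their groups overlapped.

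TOPBP1, which activates ATR, had 7.07 and 7.40 in p53 on, against 8.00 and 8.04 in p53 off (-0.79 ± 0.24, block adjusted p = 0.0503). ATR and its partner ATRIP differed by -0.46 ± 0.32 and -0.24 ± 0.24, and the histone gene H2AFX (now H2AX) by -0.24 ± 0.23, none of them called. CHEK2, the kinase downstream of ATM, was split by experiment. It had 5.10 and 3.73 in p53 on, against 5.07 and 5.72 in p53 off, a difference of 0.03 in experiment 1 and -1.99 in experiment 2 (-0.98 ± 0.50, block adjusted p = 0.15).

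**Figure D2:**
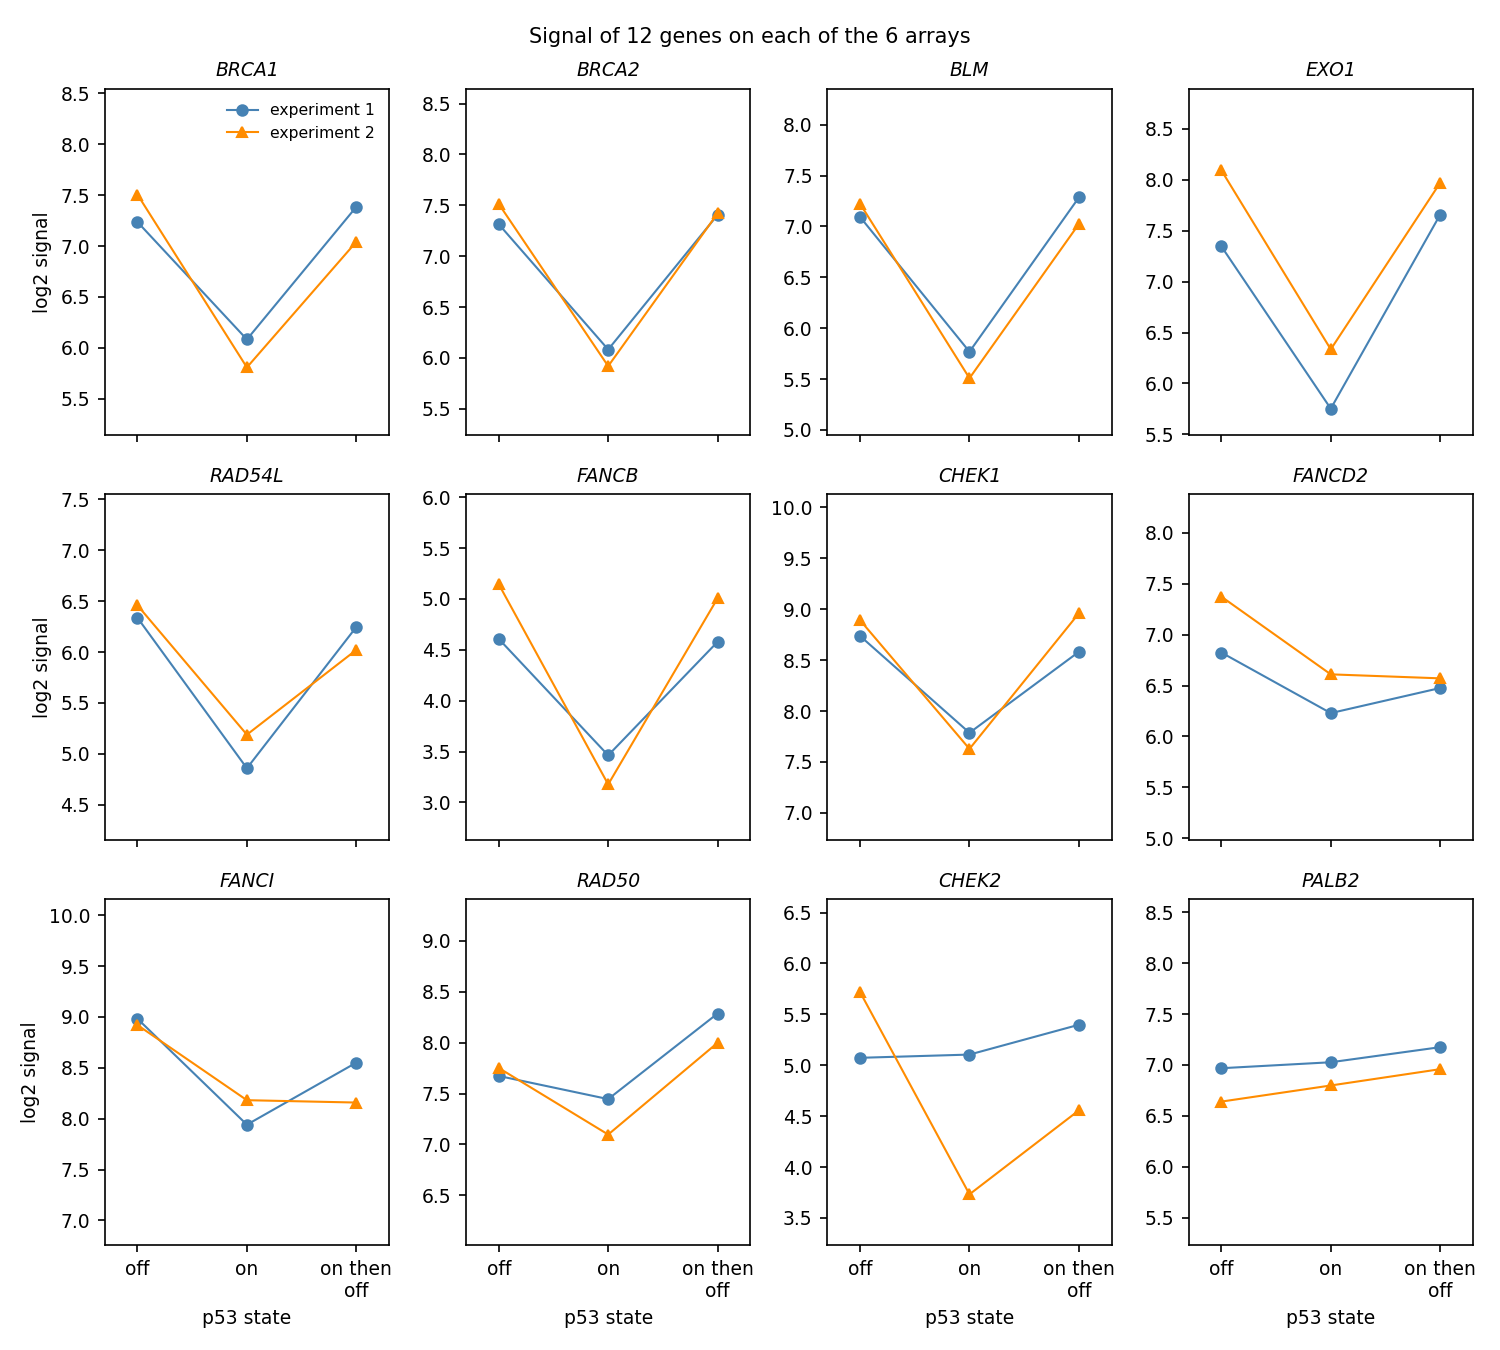
Log2 signal of 12 genes on each of the 6 arrays, in the order p53 off, p53 on, p53 on then off, with 1 line per experiment and the same axis span in each panel. The genes were chosen after their values were seen, to show the patterns in the text. BRCA1, BRCA2, BLM, EXO1, RAD54L, FANCB and CHEK1 dip in p53 on in both experiments. FANCD2 and FANCI also lie below p53 off afterwards, a difference that was not called. CHEK2 differs between the experiments, and PALB2 changes little.

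Single probe sets gave a finer view than gene medians. A gene here has several probe sets along its exons, and its value is their median. The 37 genes had 730 distinct probe sets, after 14 repeats of MDC1 with identical values were set aside, and 682 had a mean signal at or above the filter value. Of these, 562 (82.4%) were lower in p53 on in both experiments and 36 (5.28%) were higher. Over all 164799 such probe sets of the array the shares were 31.5% lower and 30% higher. In recovery 505 (74%) were higher in both experiments and 36 were lower, against 33.5% and 29.2% over the array. From p53 off to p53 on then off, 259 (38%) were lower in both experiments and 143 (21%) were higher. Over the array those shares were 27.1% and 31.5%. Probe sets of a gene share the arrays, so these counts describe agreement and carry no test.

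Every such probe set was lower in both experiments for BLM (23 of 23), RAD54L (18 of 18), EXO1 (17 of 17), MRE11A (18 of 18), CHEK1 (15 of 15), MDC1 (13 of 13), FANCL (13 of 13), RMI1 (5 of 5) and XRCC2 (4 of 4). BRCA2 had 28 of 29 and BRCA1 24 of 26. In contrast, PALB2 had 2 of 16 lower and 9 higher, RAD51C 1 of 12 lower and 6 higher, and WRN 4 of 26 lower and 8 higher. CHEK2 had 10 of 12 lower in both experiments, although its gene median was split. ATRIP rested on 2 probe sets, of which 1 reached the filter value.

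**Figure D3:**
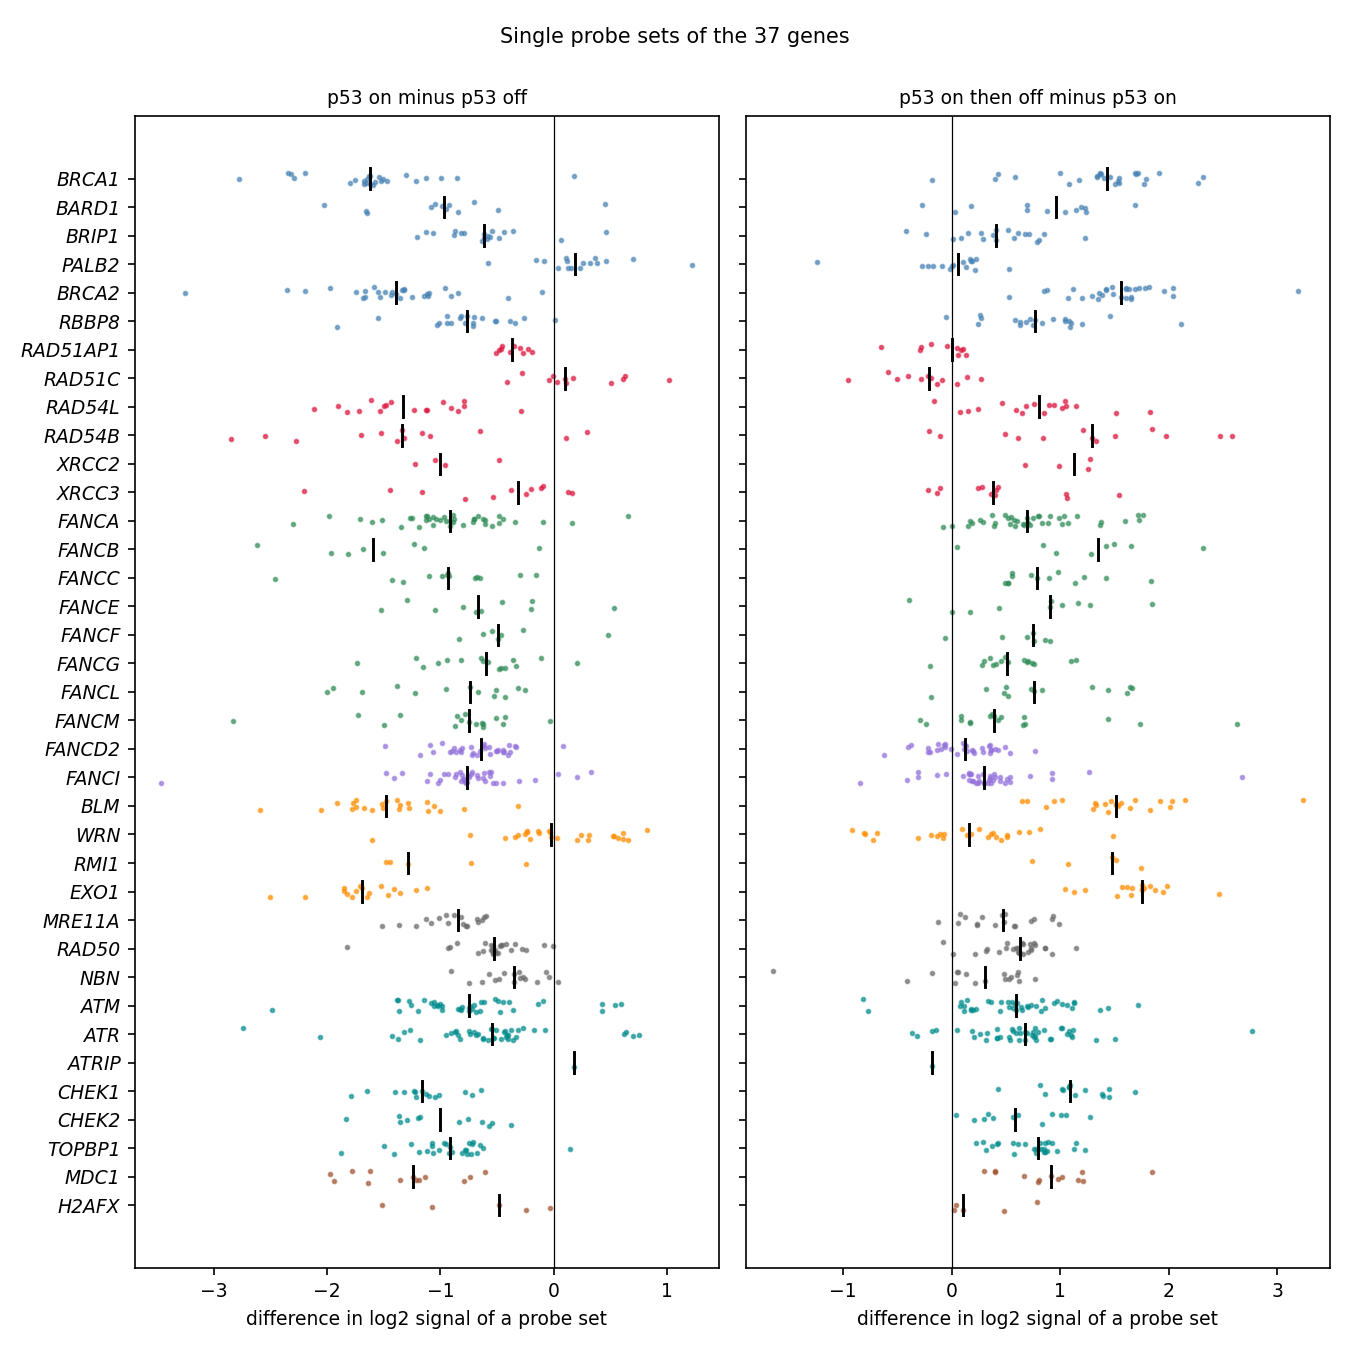
Difference in log2 signal of each distinct probe set at or above the filter value, mean of the 2 experiments, for p53 on minus p53 off and p53 on then off minus p53 on, with 1 row per gene and a black bar at the median. For BLM and EXO1 all points lie left of 0 in the left panel and right of 0 in the right panel, while PALB2, RAD51C and WRN straddle 0 in both.

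Other genes of the same pathways, from a list of 63 tested genes that are not among the 37, had a median of -0.42. Without the block 3 fell and 0 rose, and with it 15 fell and 1 (RNF169) rose. CLSPN, the claspin adaptor that lets ATR activate CHEK1, had 5.25 and 5.25 in p53 on, against 6.84 and 7.11 in p53 off (-1.72 ± 0.21, adjusted p = 0.02). The phosphatase gene CDC25A, a target of CHEK1, fell by 1.28 ± 0.22 on the log2 scale (adjusted p = 0.0494). BRCC3, a deubiquitinase of the BRCA1-A complex, fell by 1.21 ± 0.21 (adjusted p = 0.0494). The crosslink nuclease gene DCLRE1A and the polymerase gene POLQ fell with the block only, by 1.26 ± 0.40 and 1.03 ± 0.34 (block adjusted p = 0.00646 and 0.0251).

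Cell cycle genes moved alongside. Of 38 G1/S and replication genes, 7 fell without the block and 22 with it (median -0.82), and of 28 G2/M and mitosis genes 1 fell without it and 15 with it (median -0.70). Their part in the values of the 37 was not tested.

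The second comparison asks how the genes stood 6 h after p53 was switched off again. Most members lay higher in p53 on then off. BLM and BRCA2 rose 2.86-fold and 2.66-fold without the block, and 16 members rose (15 without FANCB) and 0 fell with it. The median difference was 0.71, against 0.02 over all genes, with 0.63 in experiment 1 and 0.64 in experiment 2. Since p53 on is the shared group, differences here and in the first comparison are not independent.

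Over all genes, 0.143% were called higher and 0.285% lower without the block, and 3.84% and 3.39% with it. Both p53 on then off arrays lay above both p53 on arrays for 20 members, against 21.3% of all genes, and below them for 1 (RAD51C), against 18.3%. In both experiments 29 members were higher, against 34.8% of all genes, and 2 (RAD51C and ATRIP) were lower, against 31.4%. Without any 1 array no member stayed called in limma. With all arrays, 18 members had an unadjusted p under 0.05, against 12.3% of all genes. With the mean of probe sets, 6 members were called higher without the block, namely BLM and BRCA2 with BRCA1, RMI1, EXO1 and CHEK1.

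BLM had 7.28 and 7.02 in p53 on then off, against 5.77 and 5.51 in p53 on (1.52 ± 0.21, adjusted p = 0.0473, block 0.00397). BRCA2 had 7.41 and 7.42 in p53 on then off, against 6.08 and 5.92 in p53 on (1.41 ± 0.20, adjusted p = 0.0473, block 0.0047). Both genes were over 1.3 log2 units higher in each experiment. Both calls lay close to the threshold. Neither was made with no filter on dim genes (adjusted p = 0.0653 for BLM and 0.0658 for BRCA2) or in a fit of only these groups (0.145 and 0.144), and BRCA2 was not called with median centring (0.0526).

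The nuclease gene EXO1 had 7.66 and 7.97 in p53 on then off, against 5.75 and 6.33 in p53 on (1.77 ± 0.32, adjusted p = 0.0869, block 0.00197). BRCA1 had 7.39 and 7.04 in p53 on then off, against 6.08 and 5.81 in p53 on (1.27 ± 0.23, adjusted p = 0.0868, block 0.0102). FANCB had 4.58 and 5.01 in p53 on then off, against 3.46 and 3.18 in p53 on (at least 2.26-fold, 1.47 ± 0.27 as measured, adjusted p = 0.0881, block 0.00879). These 3 rose with the block, and from the mean of probe sets EXO1 and BRCA1 were called without it (adjusted p = 0.03 and 0.0389). None of their groups overlapped. FANCB again rests on p53 on values under the filter value.

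Also with the block, CHEK1 rose by 1.06 ± 0.22 (8.58 and 8.96 in p53 on then off, against 7.79 and 7.63 in p53 on, block adjusted p = 0.015). RAD54L rose by 1.11 ± 0.22 (6.25 and 6.02 in p53 on then off, against 4.86 and 5.19 in p53 on, block adjusted p = 0.0136). RMI1 rose by 1.02 ± 0.22 (6.69 and 6.27 in p53 on then off, against 5.49 and 5.44 in p53 on, block adjusted p = 0.0139). BARD1, RBBP8, FANCA, FANCC and FANCL rose by 0.67 to 0.82, with block adjusted p of 0.0296 to 0.0496.

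Altogether 13 members fell in p53 on and rose in p53 on then off with the block: BRCA1, BARD1, BRCA2, RBBP8, RAD54L, FANCA, FANCB, FANCC, FANCL, BLM, RMI1, EXO1 and CHEK1 (12 without FANCB). Over all genes 2.69% were called lower and then higher in that fit. Both comparisons use the p53 on arrays, so the joint count is not independent evidence. Another 3 rose in recovery without a call in the first comparison. XRCC2 had 6.82 and 6.80 in p53 on then off, against 6.18 and 5.31 in p53 on (1.06 ± 0.30, block adjusted p = 0.035). RAD50 had 8.29 and 8.00 in p53 on then off, against 7.45 and 7.10 in p53 on (0.87 ± 0.22, block adjusted p = 0.0282). FANCE had 5.57 and 5.73 in p53 on then off, against 5.01 and 4.83 in p53 on (0.73 ± 0.20, block adjusted p = 0.0423).

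A further 6 members fell in p53 on with the block and had no call in recovery. FANCI had 8.55 and 8.16 in p53 on then off, against 7.94 and 8.18 in p53 on (0.29 ± 0.22, block adjusted p = 0.441). FANCD2 had 6.48 and 6.57 in p53 on then off, against 6.23 and 6.61 in p53 on (0.10 ± 0.26, block adjusted p = 0.805). For both genes the groups overlapped, with a positive difference in experiment 1 and one just below 0 in experiment 2.

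RAD54B was split between the experiments. It had 5.64 and 4.08 in p53 on then off, against 4.14 and 3.73 in p53 on, a difference of 1.50 in experiment 1 and 0.35 in experiment 2 (0.93 ± 0.47, block adjusted p = 0.101). ATM, MDC1 and FANCG differed by 0.64 ± 0.22, 0.71 ± 0.26 and 0.58 ± 0.21, with block adjusted p of 0.0835, 0.0839 and 0.108, and all 3 were higher in both experiments. A missed threshold does not show that these genes stayed at their p53 on level.

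The members with no call in either comparison, from medians with or without the block, numbered 15: BRIP1, PALB2, RAD51AP1, RAD51C, XRCC3, FANCF, FANCM, WRN, MRE11A, NBN, ATR, ATRIP, CHEK2, TOPBP1 and H2AFX. Their recovery differences ran from -0.24 ± 0.22 for RAD51C to 0.79 ± 0.38 for FANCM. The MRE11A value depended on how its probe sets were joined. It was -0.10 as a median of probe sets, 0.48 as their mean and 0.33 from probe sets at or above the filter value, and 13 of its 18 such probe sets were higher in both experiments.

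Among the other pathway genes, CLSPN rose by 1.68 ± 0.21 (6.83 and 7.04 in p53 on then off, against 5.25 and 5.25 in p53 on, adjusted p = 0.0309). The list had a median of 0.37, and the blocked fit called 13 of its genes higher and 2 lower. The 2 were RNF169 and C19orf62, a BRCA1-A complex gene named after its value was seen. CDC25A, DCLRE1A and the nuclease and helicase gene DNA2 rose with it by 1.37 ± 0.22, 1.29 ± 0.40 and 1.21 ± 0.32 (block adjusted p = 0.0054, 0.00879 and 0.0133). RNF169, a ubiquitin reader at breaks, fell by 1.18 ± 0.19 with the block (adjusted p = 0.00706), after 7.45 and 7.58 in p53 on, against 6.49 and 6.49 in p53 off. The G1/S and replication list had a median of 0.77, with 21 of 38 higher with the block, and the G2/M and mitosis list had a median of -0.16, with 0 of 28 higher. The difference between these lists and the 37 genes was not tested.

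**Figure D4:**
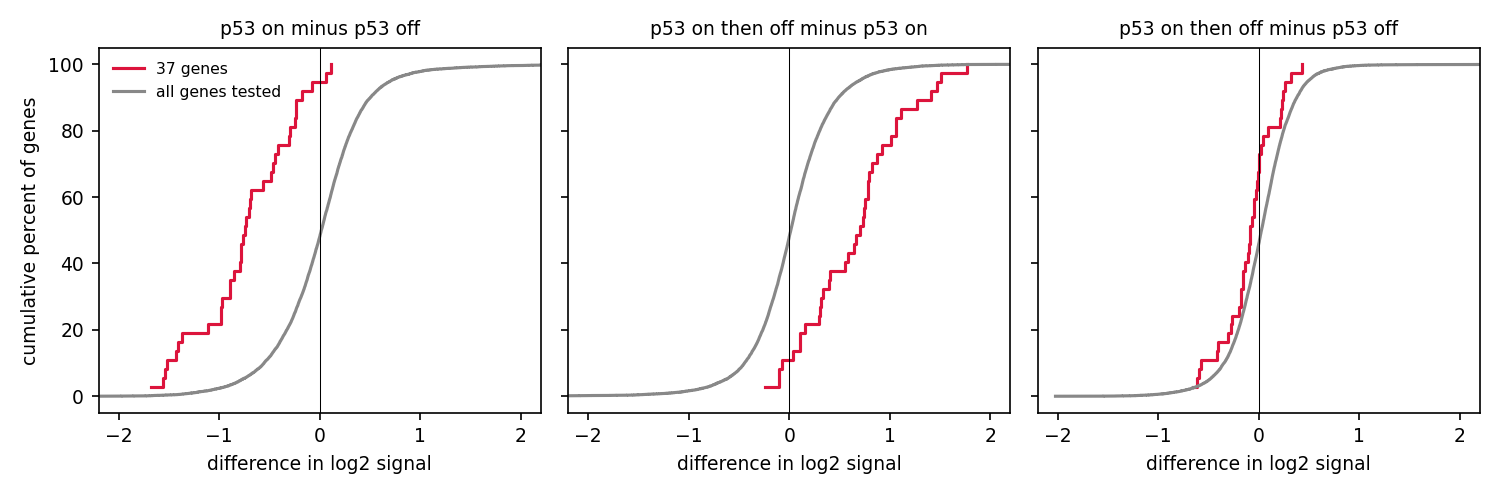
Cumulative percent of genes against the difference in log2 signal, for the 37 genes (red) and all 14026 genes tested (grey), in each comparison. The red curve lies left of the grey one for p53 on minus p53 off (medians -0.74 and 0.02), right of it for p53 on then off minus p53 on (0.71 and 0.02), and near it for p53 on then off minus p53 off (-0.08 and 0.03).

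The third comparison sets p53 on then off against p53 off, and asks what remained after 6 h. In limma 0 members were called with or without the block. An unadjusted p under 0.05 was found for 1 of the 37 without the block, against 5.32% of all genes. With the block it was found for 4, against 13% of all genes. Over all genes, 0.0285% were called higher and 0% lower without the block, and 0.207% and 0.392% with it. The median over the 37 was -0.08, against 0.03 over all genes, with 0.09 in experiment 1 and -0.14 in experiment 2.

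Several members that had fallen were close to their p53 off signal. BLM had 7.28 and 7.02 in p53 on then off, against 7.09 and 7.22 in p53 off, a difference of -0.0038 ± 0.21. BRCA2 had 7.41 and 7.42 in p53 on then off, against 7.31 and 7.51 in p53 off (-0.00029 ± 0.20). EXO1 differed by 0.09 ± 0.32, CHEK1 by -0.04 ± 0.22, FANCB by -0.08 ± 0.27 and FANCC by -0.01 ± 0.21. BRCA1 differed by -0.16 ± 0.23, with 0.15 in experiment 1 and -0.46 in experiment 2. With 2 arrays per group, differences larger than these standard errors also went uncalled, such as -0.60 ± 0.22 for FANCI. The values therefore do not show that these genes were fully back at their p53 off level.

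FANCI and FANCD2 had differences among the furthest from 0. FANCI had 8.55 and 8.16 in p53 on then off, against 8.98 and 8.92 in p53 off (-0.60 ± 0.22, adjusted p = 0.876, block 0.254). FANCD2 had 6.48 and 6.57 in p53 on then off, against 6.82 and 7.37 in p53 off (-0.58 ± 0.26, adjusted p = 0.954, block 0.239). Neither gene's groups overlapped, and neither difference passed the test. MRE11A differed by -0.66 ± 0.29 and RAD54B by -0.61 ± 0.47, and RAD54B had 0.04 in experiment 1 and -1.27 in experiment 2.

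At the other end, RAD50 had 8.29 and 8.00 in p53 on then off, against 7.67 and 7.75 in p53 off (0.43 ± 0.22, adjusted p = 0.97, block 0.369). RMI1 differed by 0.32 ± 0.22 and PALB2 by 0.26 ± 0.22. Both p53 on then off arrays lay below both p53 off arrays for 5 members (RAD54L, FANCD2, FANCI, MRE11A and ATRIP), against 14.5% of all genes, and above them for 4 (XRCC2, FANCE, RMI1 and RAD50), against 20.4%. The groups of the remaining members overlapped.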

How the data were processed

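Each deposited column holds 1 array on a log2 scale, taken from the span of -0.85 to 13.14, with a row per exon-level probe set. How the authors corrected background and normalized, with which program and build, is not given in the sources used here. Column medians of the deposited log2 values lay between 5.24 and 5.31, so they were used unscaled. Precision is limited by the number of arrays. Probe sets were named through the platform annotation. Of 257430 probe sets, the 224320 with 1 symbol were kept, and those with several (10159) or none listed (22951) were not. Probe sets were joined into gene values by their median. Of the 18701 genes, the 25% with the lowest mean signal (below log2 3.62) were dropped.

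The 3 groups were fitted as 1 factor over 6 arrays with limma 3.58.1 in R 4.3.3, with Benjamini-Hochberg adjustment over 14026 genes and a threshold of 0.05, and the script was tested on simulated data. An exact permutation test of 2 arrays against 2 cannot pass that threshold. The experiment number in the labels pairs the arrays, and deviations from group means correlated between same-numbered arrays at 0.496, 0.551 and 0.63 across genes. The fit with this replicate block is given beside the unblocked one where it changes a call. Standard errors are those of the unblocked fit unless named otherwise. The alternatives were other filters, probe set summaries, scalings and priors, a fit of only the groups compared, and each array left out.

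All 37 members are named by role, with array values for those called with or without the block. In recovery BARD1, RBBP8, FANCA, FANCC and FANCL are given as a range instead. From the other pathway genes, the 5 called genes with the largest difference per comparison are named, unblocked calls first. Members and lists were chosen with earlier results of these data known. Promoters and gene names are from RefSeq (GRCh38.p14).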

Additional observations from a re-analysis of the deposited data

How the results depend on the processing

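Without the block, 5 members were lower in p53 on than in p53 off, a count of 19 with the replicate block, 13 with the mean of probe sets as the gene value, 2 with no filter on dim genes and 0 in a fit of only these groups. It was 4 or 5 with the lowest 40% of genes left out, with bright probe sets only, quantile normalization, median centring and a trended prior. In recovery, 2 members were higher than in p53 on, a count of 16 with the replicate block, 6 with the mean of probe sets, 1 with median centring (BLM, not BRCA2) and 0 with no filter or in a fit of only these groups. No member was called in limma in any comparison when 1 array was left out, which leaves 1 group with 1 array. The median of the first comparison lay between -0.74 and -0.64 without 1 array. That of recovery lay between 0.50 and 0.78 without 1 array, and was 0.63 with the mean of probe sets, 0.67 with bright probe sets, 0.69 with quantile normalization and 0.68 with median centring. That of p53 on then off against p53 off lay between -0.23 and 0.03 without 1 array. No called difference changed sign under any of these settings, while 87 values of uncalled differences did, 58 of them in the last comparison. Those 58 include members called in the other comparisons, such as BLM and BRCA2. The cause of these changes was not tested, beyond the smaller number of arrays or the larger number of genes that some settings bring by construction. Signal over background limits FANCB, whose p53 on values lay under the filter value. In experiment 2 the p53 on value of FANCM (3.38) also lay under it. Those of RAD54B and CHEK2 (3.73 each) lay just above it.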
